A study of Mus musculus with 5 samples.

Results

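The genes described here encode the proteasome, its inducible variant, its activators and its assembly factors, measured in splenic germinal centre B cells with and without floxed Rel alleles. Members were every gene whose platform symbol began with Psma, Psmb, Psmc, Psmd, Psme, Psmf or Psmg followed by a number and that had at least 1 probe set naming it alone. This gave 49 genes out of 18194 on the array, and 47 of them passed a filter on dim probe sets. The REL group held 2 arrays of eGFP-positive germinal centre B cells from mice carrying relfl/fl alleles together with Cg1-Cre. Rel encodes c-Rel, a subunit of the transcription factor NF-kB, and fl denotes an allele flanked by loxP sites. The WT group held 3 arrays of eGFP-negative germinal centre B cells from littermates with Cg1-Cre alone, so both groups carry the Cre transgene. The labels do not say what eGFP marks, and since the sort differs between the groups along with the Rel alleles, the part of each in a difference cannot be told apart. Cg1-Cre places the recombinase under the immunoglobulin gamma 1 constant region, which is switched on in B cells that respond to antigen. All mice were 12 weeks old, on a C57BL/6 background, and received sheep red blood cells 7 days before sampling. Nothing in the labels ties an array to an animal of its own, so the spread behind each p-value may be technical.

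The proteasome is a barrel-shaped protease that degrades proteins tagged with ubiquitin. Its core particle stacks rings of alpha subunits (Psma genes) around rings of beta subunits (Psmb genes), and Psmb5, Psmb6 and Psmb7 encode the beta subunits that cut peptide bonds. In immune cells, and more widely under interferon gamma, Psmb8, Psmb9 and Psmb10 take the places of Psmb5, Psmb6 and Psmb7 in newly built particles, which are then called immunoproteasomes and favour the making of peptides for MHC class I. The regulatory particle recognises and unfolds substrates with a ring of ATPases (Psmc genes) and a set of other subunits (Psmd genes), while the Psme genes encode alternative caps that open the barrel. Germinal centre B cells divide fast and make large amounts of protein, and proteasomes also carry out the degradation of the inhibitors that hold NF-kB factors in the cytoplasm.

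Promoter sequences are shown for 2 inducible subunits, each with its constitutive partner, and for Psmd12. No window was to hand for Psmb7, so the pair of Psmb10 and Psmb7 is not shown. They were taken from RefSeq on GRCm38.p6 and are 300-base windows that end shortly after the annotated start. Capitals mark matches on either strand to a kB motif of NF-kB factors (GGGNNNNNCC), the antioxidant response element of Nfe2l1 and Nfe2l2 (TGANNNNGC), an interferon regulatory factor motif (GAAANNGAAA), CCAAT and the ETS motif (CCGGAAG), and adjoining or overlapping matches run together. Psmb8 lies at chr17:34197945-34198244 on the plus strand, Psmb5 at chr14:54617946-54618245 on the minus strand, Psmb9 at chr17:34187281-34187580 on the minus strand, Psmb6 at chr11:70525107-70525406 on the plus strand and Psmd12 at chr11:107479278-107479577 on the plus strand.
Psmb8: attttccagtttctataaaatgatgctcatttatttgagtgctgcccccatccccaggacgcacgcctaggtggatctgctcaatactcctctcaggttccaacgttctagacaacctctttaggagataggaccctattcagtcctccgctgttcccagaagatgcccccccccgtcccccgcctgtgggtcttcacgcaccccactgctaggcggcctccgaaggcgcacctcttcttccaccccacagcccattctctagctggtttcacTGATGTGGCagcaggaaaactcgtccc
Psmb5: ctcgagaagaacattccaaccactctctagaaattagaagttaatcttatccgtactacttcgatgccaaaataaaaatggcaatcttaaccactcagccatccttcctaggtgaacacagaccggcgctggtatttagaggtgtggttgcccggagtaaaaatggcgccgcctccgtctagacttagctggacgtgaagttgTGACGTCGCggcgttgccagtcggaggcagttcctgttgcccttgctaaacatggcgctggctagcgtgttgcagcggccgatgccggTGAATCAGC
Psmb9: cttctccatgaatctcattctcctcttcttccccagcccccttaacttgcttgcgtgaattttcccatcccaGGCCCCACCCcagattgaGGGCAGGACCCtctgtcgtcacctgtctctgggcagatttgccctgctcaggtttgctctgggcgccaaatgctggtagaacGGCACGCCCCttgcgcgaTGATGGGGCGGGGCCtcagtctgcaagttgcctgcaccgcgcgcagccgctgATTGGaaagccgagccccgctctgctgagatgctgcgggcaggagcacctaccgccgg
Psmb6: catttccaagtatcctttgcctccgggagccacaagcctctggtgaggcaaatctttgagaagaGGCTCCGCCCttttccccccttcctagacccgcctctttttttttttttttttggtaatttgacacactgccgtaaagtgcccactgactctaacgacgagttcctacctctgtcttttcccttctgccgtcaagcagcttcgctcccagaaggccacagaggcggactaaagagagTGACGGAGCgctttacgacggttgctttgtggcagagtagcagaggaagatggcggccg
Psmd12: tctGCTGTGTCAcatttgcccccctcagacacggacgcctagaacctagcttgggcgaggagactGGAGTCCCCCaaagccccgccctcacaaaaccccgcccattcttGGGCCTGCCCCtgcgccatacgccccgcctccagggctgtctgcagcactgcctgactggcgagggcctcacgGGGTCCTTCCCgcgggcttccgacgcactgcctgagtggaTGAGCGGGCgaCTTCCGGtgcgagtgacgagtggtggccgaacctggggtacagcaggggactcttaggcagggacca

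The Psmb8 window held 1 antioxidant response element match, and the Psmb5 window held 2, and neither held a match to the other motifs searched. Matches to the kB motif stood in the Psmb9, Psmb6 and Psmd12 windows. The Psmb10 window, which is not shown, held no match to any motif searched. The ETS motif was found in 17 of 43 windows of 40 tested members (39.5%), against 8.86% of 32851 promoter windows of the same length. The interferon regulatory factor motif was found in 5 of the 43 (11.6%), against 3.44% of all windows. The antioxidant response element stood in 55.8% of the members' windows and 41.3% of all, the kB motif in 55.8% and 50.8%, and CCAAT in 34.9% and 37.4%. These are counts of letters in a fixed window and do not show binding. The members' windows are of genes that passed the filter and are set against all windows, not those of genes of like signal.

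Signals are MAS5 intensities on a linear scale, in which each array was scaled so that its 2% trimmed mean was 500. Differences are REL minus WT on the log2(signal + 16) scale, with the limma standard error (SE). Rel had signals of 18.6 and 85.2 in REL, against 492, 134 and 206 in WT (difference −2.12, SE 0.73, limma adjusted p = 0.46), and the labels do not name the deleted exons. Of 12 tested germinal centre B cell markers, none was called, and 8 were below 0 and 4 above. Bcl6 had signals of 9384 and 8731 in REL, against 7619, 10515 and 9915 in WT. Rgs13 was the 1 marker of the 12 with both REL arrays below every WT array, where 14.3% of all genes were. It had 4514 and 3321 in REL, against 4960, 6058 and 6022 in WT (−0.54, SE 0.19, limma adjusted p = 0.483). Macrophage markers moved with the groups. With no filter on dim probe sets 17 of 19 listed were above 0, and their summed signal was 9136 and 7388 in REL, against 2051, 2516 and 1455 in WT. Of the 15 that passed the filter, 6 had a WT mean under it and passed through the REL arrays (Csf1r, C1qb, Vcam1, Mrc1, Mertk and Spic), and Vcam1, called higher in REL, was near 0 in WT, at 0.833 to 2.46. Dendritic and NK cell markers summed to 1457 and 2123 in REL, against 1110, 721 and 766 in WT, with 4 of 6 above 0. Erythroid markers summed to 113 and 53.1 in REL, against 364, 563 and 144 in WT, with 3 of 4 below 0. For neutrophil markers the sums were 372 and 88.8 in REL, against 705, 1306 and 114 in WT, with 4 of 5 below 0. For T cell markers they were 6534 and 5360 in REL, against 4888, 5440 and 5043 in WT, with 3 of 7 above 0. Most of the T cell sum was Cd2, with 5725 and 5088 in REL, against 4396, 5233 and 4743 in WT. Cd3d, Cd3e, Cd3g and Cd4 did not pass the filter. The part of other cells in the values below was not tested, and in sorted bulk samples fewer cells of a type and less RNA per cell cannot be told apart.

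No proteasome gene was called. At a limma adjusted p under 0.05, 0 of 47 members passed, where 0.00828% of the 12082 genes tested did, and the members' adjusted p ran from 0.337 to 0.998. At an unadjusted p under 0.05 there were 5 members lower in REL and none higher, which is 10.6% of members lower, against 4.99% of all genes lower and 3.24% higher. The 5 were Psmb5, Psmb7, Psmc4, Psmd1 and Psmd12. Of the 47, 38 had a difference below 0, where 56.8% of all genes did. The members' median was −0.15 and that of all genes −0.07. In 10 members (21.3%), against 14.3% of all genes, both REL arrays were below all 3 WT arrays, and in none were both above them, against 9.53%.

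These counts leaned on REL replicate 1 and on the scaling. The signal of REL replicate 1 was below every WT array in 33 of 47 members, where 31.2% of all genes were, and that of REL replicate 2 in 15, where 34.7% of all genes were. REL replicate 2 was above every WT array in 11 members, against 24.6% of all genes, and REL replicate 1 in none, against 26.5%. Without REL replicate 1, 24 members were below 0 and their median was −0.02, and without REL replicate 2, 42 were below 0 and the median was −0.30. The number of members with REL wholly below WT was 15 without REL replicate 1, 33 without REL replicate 2 and 21 without WT replicate 1, where 34.7%, 31.2% and 23.9% of all genes did so in that order. Centring each array on its median moved the median of all genes to 0.10 and left 22 members below 0, and 1 member, Psmb7, with both REL arrays below every WT array, where 7.41% of all genes were. Such centring moves every gene alike and so cannot change a gene's distance from the median of all genes. The members' median was −0.08 from it, and 34 of 47 lay below it, as 50.0% of all genes do by its definition, but 20 did without REL replicate 1. The map of all members by array shows the column of REL replicate 1 below the WT mean for most core and ATPase genes, and a mixed column for REL replicate 2.

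**Figure D1:**
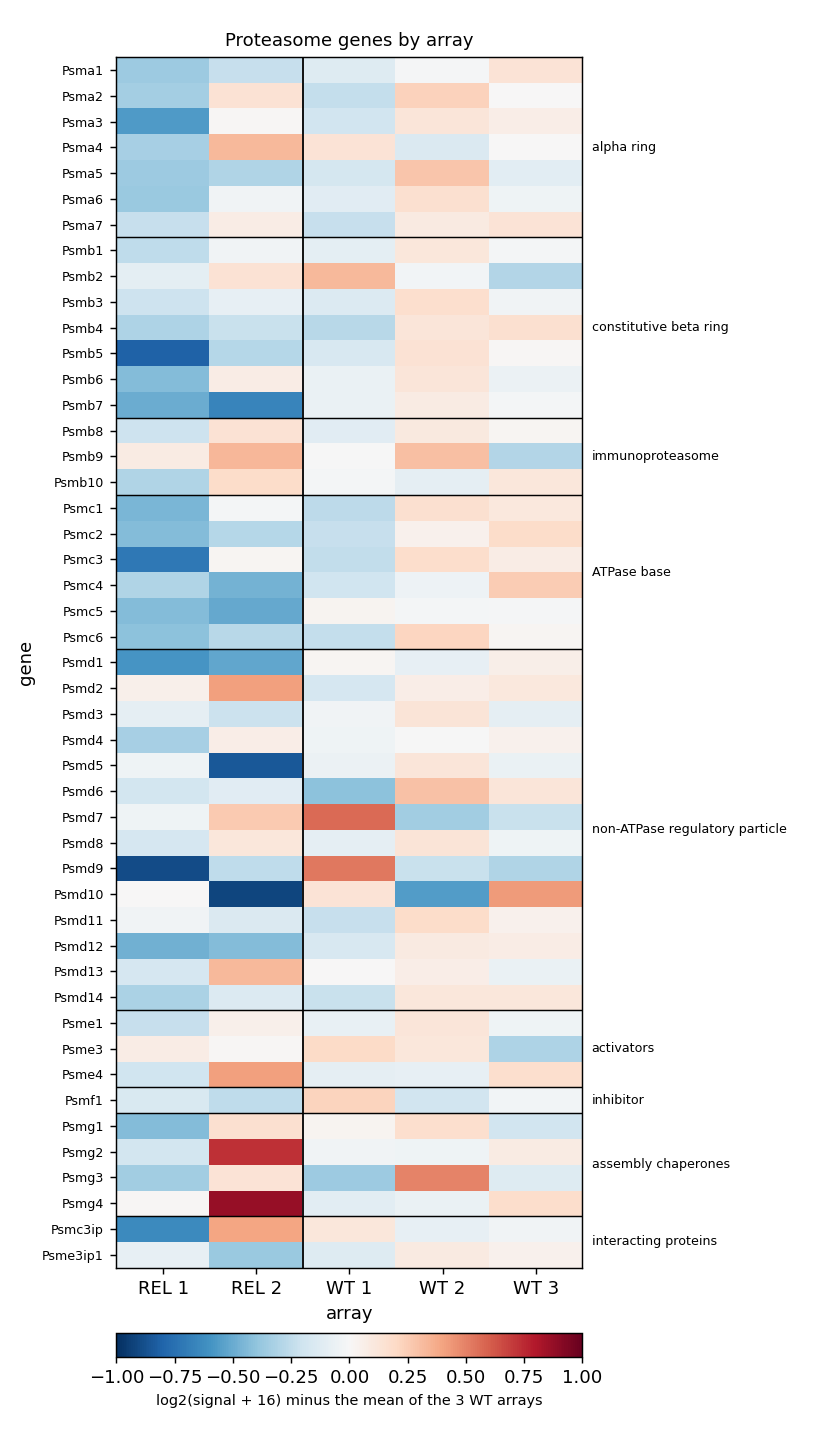
Deviation of each of the 47 tested proteasome genes (rows, ordered by role) from the mean of the 3 WT arrays on each array (columns), in log2(signal + 16) units. REL replicate 1 lies below every WT array for 33 genes and REL replicate 2 for 15.

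The alpha ring forms the outer gates of the core particle. Of 8 Psma genes 7 were tested, and all 7 were below 0, with a median of −0.20, a range from −0.33 to a value within rounding of 0 (Psma4), and 6 of them below the median of all genes. Psma5 had signals of 5877 and 6111 in REL, against 6681, 9137 and 7022 in WT (−0.33, SE 0.17, limma adjusted p = 0.668). Psma1 had 4372 and 4794 in REL, against 5143, 5594 and 6214 in WT (−0.30, SE 0.17). On the probe sets used, the groups did not overlap in these 2 genes, and in the other alpha genes they did. Both REL arrays were thus below every WT array in 28.6% of the alpha genes tested, against 14.3% of all genes. A less bright Psma5 probe set had 3885 and 4366 in REL, against 4523, 4441 and 4330 in WT (−0.11), with overlapping groups. Psma3 had 4744 and 7097 in REL, against 6199, 7670 and 7438 in WT (−0.28, SE 0.20), so that only REL replicate 1 lay outside the WT range, and without that array the difference was 0.01. REL replicate 1 was the lowest of the 5 arrays in all 7 alpha genes, in 30 of all 47 members and in 2847 of the 12082 genes tested. Psma8, a variant alpha subunit known from testis, did not pass the filter, with signals of 20.9 and 22.6 in REL and 63.9, 4.28 and 3.79 in WT.

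Among the constitutive beta subunits the values of the catalytic genes Psmb7 and Psmb5 were the lowest relative to WT. Psmb7, which encodes the subunit with trypsin-like activity, had signals of 6069 and 5425 in REL, against 8184, 9066 and 8437 in WT (means 5747 ± 456, SD, n = 2, and 8562 ± 454, SD, n = 3). Both REL arrays were below every WT array, and the difference of −0.57 (SE 0.14) had the smallest p of any member, with a limma adjusted p of 0.337. It was between −0.66 and −0.49 when each array was left out in turn and −0.41 under median centring. Psmb5, the chymotrypsin-like subunit and the main target of bortezomib, had 3327 and 4780 in REL, against 5230, 6445 and 5900 in WT (−0.55, SE 0.20, limma adjusted p = 0.489). Here too the groups did not overlap, but the REL arrays were far apart, and the difference was −0.29 without REL replicate 1 and −0.81 without REL replicate 2. Psmb7 and Psmb5 make up 28.6% of the constitutive beta genes tested, where 14.3% of all genes had both REL arrays below every WT array. Psmb6, the caspase-like subunit, had 5227 and 7447 in REL, against 6786, 7734 and 6831 in WT (−0.19, SE 0.18), and the groups overlapped.

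Psmb1 to Psmb4 encode beta subunits without catalytic activity. Psmb4 had signals of 8142 and 8646 in REL, against 8285, 10973 and 11244 in WT (−0.26, SE 0.16). Psmb2 was the member above 0, with 2487 and 2946 in REL and 3338, 2611 and 2164 in WT (0.02, SE 0.24). The groups overlapped in both genes, as they did in Psmb1 (−0.14) and Psmb3 (−0.15). A less bright Psmb1 probe set had 918 and 715 in REL, against 1260, 1262 and 1721 in WT (−0.78), without overlap. The dimmest Psmb1 probe set was at −0.28, with overlap, and a less bright Psmb4 probe set was at −0.09. The median of the 7 constitutive beta genes was −0.19. Psmb11, the beta subunit of cortical thymic epithelium, did not pass the filter, with signals of 4.96 and 2.65 in REL and 3.12, 3.27 and 9.02 in WT.

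The inducible subunits had overlapping groups and differences between −0.06 and 0.21. Psmb8, the inducible counterpart of Psmb5, had signals of 4503 and 5731 in REL, against 4791, 5525 and 5245 in WT (−0.03, SE 0.18, limma adjusted p = 0.987). Psmb9, the counterpart of Psmb6, had 5619 and 6681 in REL, against 5273, 6530 and 4301 in WT (0.21, SE 0.20). Psmb10, the counterpart of Psmb7, had 4469 and 6264 in REL, against 5443, 5162 and 5977 in WT (−0.06, SE 0.19). In each gene REL replicate 2 was above every WT array, and in Psmb8 and Psmb10 REL replicate 1 was below every WT array, so that the groups overlapped in all 3. The 3 genes lay above the median of all genes, and their median of −0.03 was 0.18 without REL replicate 1, −0.20 without REL replicate 2 and 0.14 under median centring.

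Setting each inducible subunit against its partner within the same array removes the scaling of the array, since a shift common to both cancels. The log2 difference of Psmb8 minus Psmb5 was 0.43 and 0.26 in REL, against −0.13, −0.22 and −0.17 in WT (means 0.35 ± 0.12, SD, n = 2, and −0.17 ± 0.05, SD, n = 3). For Psmb9 minus Psmb6 it was 0.10 and −0.16 in REL, against −0.36, −0.24 and −0.67 in WT. For Psmb10 minus Psmb7 it was −0.44 and 0.21 in REL, against −0.59, −0.81 and −0.50 in WT. In all 3 pairs both REL arrays stood above every WT array, by 0.52, 0.40 and 0.51 on the log2 scale between group means. An exact permutation test over the 5 arrays (two-sided, 10 assignments) gave p = 0.2 for each pair, and 0.2 after adjustment over the 3 pairs, which is the smallest p that 2 arrays against 3 allow. The Psmb8 pair differed by more than the spread within either group, while in the Psmb10 pair the REL arrays had an SD of 0.46 and REL replicate 1 lay just above the highest WT array.

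The direction of all 3 pairs held under quantile normalization. It also held with each array left out, but that could not turn it, since both REL arrays stood above every WT array. The Psmb10 pair was at 0.19 without REL replicate 2 and 0.84 without REL replicate 1. Other pseudocounts also left the direction unchanged, but at signals this high they could hardly move a pair. Under quantile normalization the groups of the Psmb10 pair overlapped (0.48, exact permutation p = 0.4). With probe sets averaged the Psmb8 pair was at 1.05, since Psmb8 itself was then at 0.51. In the Psmb9 pair the value was 0.27 without REL replicate 1 and 0.53 without REL replicate 2. Such a value shows unequal change of the 2 genes and not which of them changed, and levels of different probe sets are not comparable with each other. The macrophage marker signal given above was higher on the same REL arrays, and its part in these differences was not tested. In the paired plot of signals, both REL signals of Psmb5 and of Psmb7 lie below the WT range, while those of Psmb8 and of Psmb10 lie on either side of it.

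**Figure D2:**
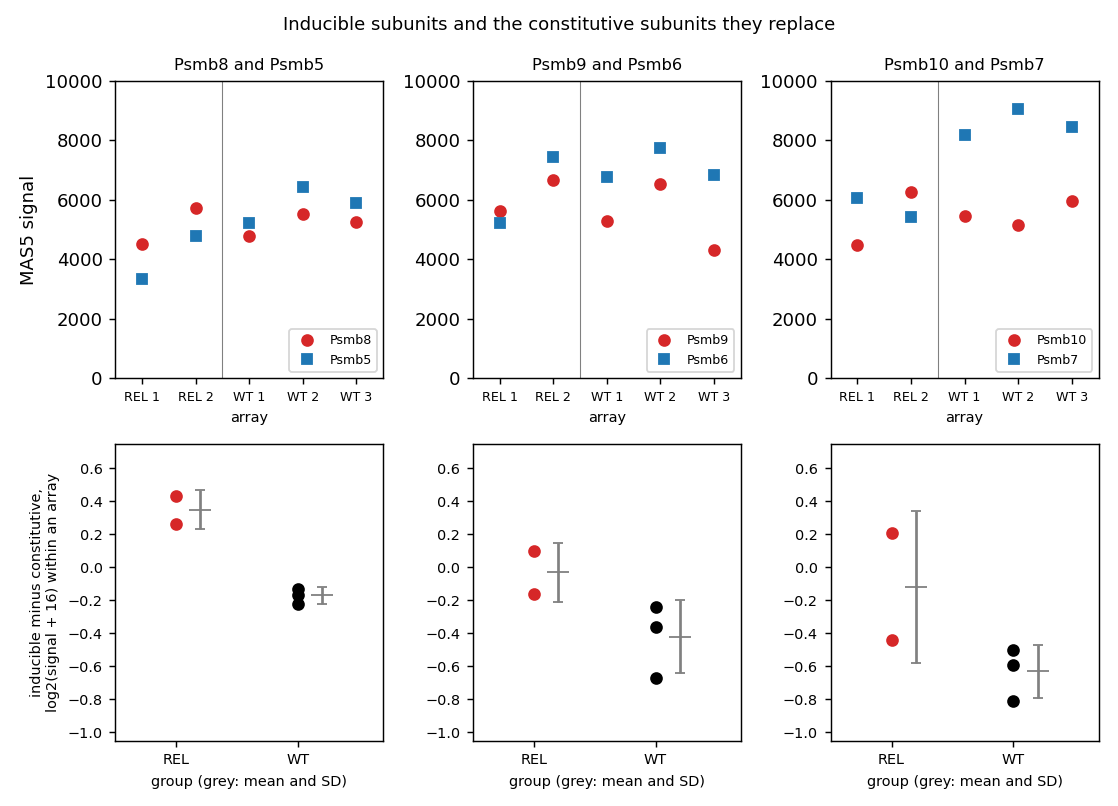
Top, MAS5 signal (linear axis from 0) of each inducible subunit (red circles) and its constitutive partner (blue squares) on the REL and WT arrays. Bottom, inducible minus constitutive log2(signal + 16) within each array, by group, with the group mean and SD in grey, where both REL arrays lie above the 3 WT arrays in each pair.

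The ATPases of the base unfold the substrate and feed it into the core. All 6 Psmc genes were below 0, with a median of −0.36 and a range of −0.47 to −0.23, and 4 of the 6 had both REL arrays below every WT array, where 14.3% of all genes did. Under median centring no ATPase gene did, since Psmb7 was the only member that still had both REL arrays below every WT array. Psmc4 had signals of 6064 and 5396 in REL, against 6522, 7229 and 8859 in WT (−0.39, SE 0.17, limma adjusted p = 0.604). A less bright Psmc4 probe set was at −0.31. Psmc5 had 1683 and 1590 in REL, against 2325, 2245 and 2251 in WT (−0.47, SE 0.23, limma adjusted p = 0.635), with REL and WT arrays each close together. Psmc2 had 3660 and 4048 in REL, against 4237, 5091 and 5618 in WT (−0.36, SE 0.19). A second Psmc2 probe set of like signal was at 0.01, and the one used here has the suffix that Affymetrix gives to probe sets that may bind other transcripts. Psmc6 (−0.34) was the other gene without overlap, and a dimmer Psmc6 probe set was at 0.36. Psmc3 was at −0.35 and Psmc1 at −0.23, with the low value in REL replicate 1.

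By array, the ATPase and Psmd genes had both REL medians under the WT range, and the core rings did not. For the ATPases the median deviation from the WT mean was −0.43 and −0.28 in REL, against −0.23, 0.10 and 0.09 in WT, so that both REL arrays were below the lowest WT array. For the alpha ring these values were −0.36 and 0.01 in REL, against −0.17, 0.12 and 0.00 in WT, and for the constitutive beta ring −0.31 and −0.08 in REL, against −0.10, 0.12 and −0.02 in WT. REL replicate 2 was inside the WT range for both rings. For the Psmd genes the values were −0.17 and −0.14 in REL, against −0.05, 0.07 and 0.05 in WT. With each array's median deviation over all genes taken off, the ATPases were at −0.40 and −0.19 in REL, against −0.18, 0.09 and 0.03 in WT. REL replicate 2 was then nearly level with WT replicate 1. The Psmd genes were then at −0.14 and −0.05 in REL, against 0.00, 0.07 and −0.02 in WT. The ATPase median was −0.28 without REL replicate 1, −0.43 without REL replicate 2, and −0.19 under median centring, where the median of all genes was 0.10. The difference between these groups of genes was not tested.

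**Figure D3:**
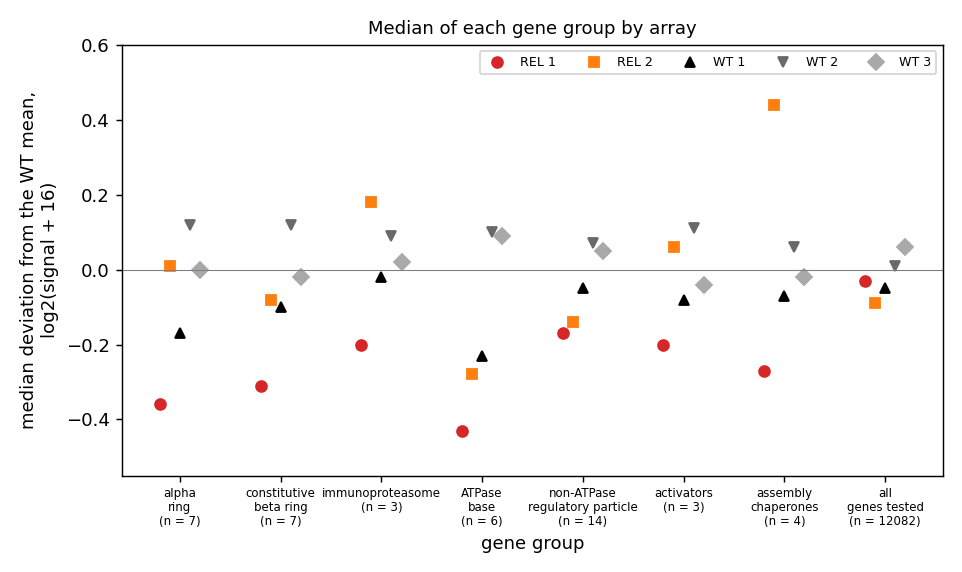
Median deviation from the WT mean, in log2(signal + 16) units, of each group of proteasome genes on each array, with all 12082 tested genes at the right. The ATPase base is at −0.43 and −0.28 in REL, while the alpha ring is at −0.36 and 0.01.

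The Psmd genes encode the scaffold, the ubiquitin receptors, the deubiquitinase and some assembly chaperones of the regulatory particle. Of 14 tested, 11 were below 0, with a median of −0.15 and a range of −0.57 to 0.24. Psmd1, the large scaffold subunit, had signals of 1622 and 1710 in REL, against 2494, 2324 and 2562 in WT (−0.56, SE 0.22, limma adjusted p = 0.544). Psmd12, a subunit of the lid, had 2893 and 3003 in REL, against 3636, 4299 and 4276 in WT (−0.46, SE 0.19, limma adjusted p = 0.556). In these 2 genes the REL arrays agreed closely with each other and lay below every WT array. That is 14.3% of the 14 Psmd genes, the same as the 14.3% of all genes. With each array left out the differences were −0.60 to −0.52 for Psmd1 and −0.54 to −0.42 for Psmd12. Psmd2, the other large scaffold subunit, had 3878 and 5009 in REL, against 3323, 3909 and 4013 in WT (0.24, SE 0.20), which was the highest value of the group. Psmd14, the deubiquitinase of the lid, was at −0.23, and the ubiquitin receptor gene Psmd4 at −0.13, both with overlapping groups.

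Psmd5, Psmd9 and Psmd10 encode chaperones that build the base and leave it before the particle is complete. Psmd9 had signals of 495 and 782 in REL, against 1351, 799 and 755 in WT (−0.57, SE 0.40), and the difference was −0.25 without REL replicate 1 and −0.31 without WT replicate 1. Its 3 probe sets ran from −0.75 to 0.87. Psmd5 had 1469 and 841 in REL, against 1458, 1661 and 1449 in WT (−0.45), and Psmd10 had 1154 and 602 in REL, against 1261, 775 and 1544 in WT (−0.45). In each the groups overlapped, and in Psmd5 and Psmd10 the low value was that of REL replicate 2, without which they were at −0.05 and 0.01.

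The activators and the inhibitor had differences between −0.21 and 0.10. Psme1, a chain of the interferon-inducible cap, had signals of 8177 and 9961 in REL, against 9085, 10412 and 9290 in WT (−0.09, SE 0.14). The gene for its partner chain shared its probe set with a second gene and was not analysed here. Psme3, the nuclear cap, had 2439 and 2343 in REL, against 2654, 2505 and 1871 in WT (0.04, SE 0.24). Psme4, a large nuclear activator, had 2099 and 3227 in REL, against 2273, 2290 and 2725 in WT (0.10, SE 0.25), and its 6 probe sets past the filter ran from −2.09 to 0.51. The groups overlapped in all 3, and their adjusted p in limma was 0.928 to 0.984. Psmf1, an inhibitor of the core particle in test tube assays, had 428 and 400 in REL, against 562, 419 and 470 in WT (−0.21, SE 0.43).

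The assembly chaperones Psmg1 to Psmg4 guide the alpha ring together. Psmg1 had signals of 785 and 1196 in REL, against 1090, 1204 and 935 in WT (−0.14, SE 0.33). Psmg2 had 1674 and 3167 in REL, against 1857, 1843 and 2022 in WT (0.27, SE 0.29). Psmg3 had 1960 and 2741 in REL, against 1939, 3527 and 2283 in WT (−0.11, SE 0.29). In all 3 of these genes the REL arrays fell on opposite sides of the WT mean. Psmg4 had 392 and 722 in REL, against 358, 369 and 439 in WT (0.44, SE 0.46), the highest value of any member, and it was 0.02 without REL replicate 2 and 0.87 without REL replicate 1. No chaperone gene was called, and their median was 0.08.

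Psmc3ip and Psme3ip1 match the symbol rule but encode interacting proteins. Psmc3ip, which acts in meiotic recombination, was at −0.12 and its second probe set at −0.83, and Psme3ip1, a partner of Psme3, was at −0.23. Of the 47 tested members 23 had 1 probe set past the filter and 24 had several. In 11 of these 24 all probe sets pointed one way, and in 13 they did not. Over all 95 probe sets of members that passed, 63 were lower in REL. The plot of differences shows each member with its SE beside the median of all genes.

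**Figure D4:**
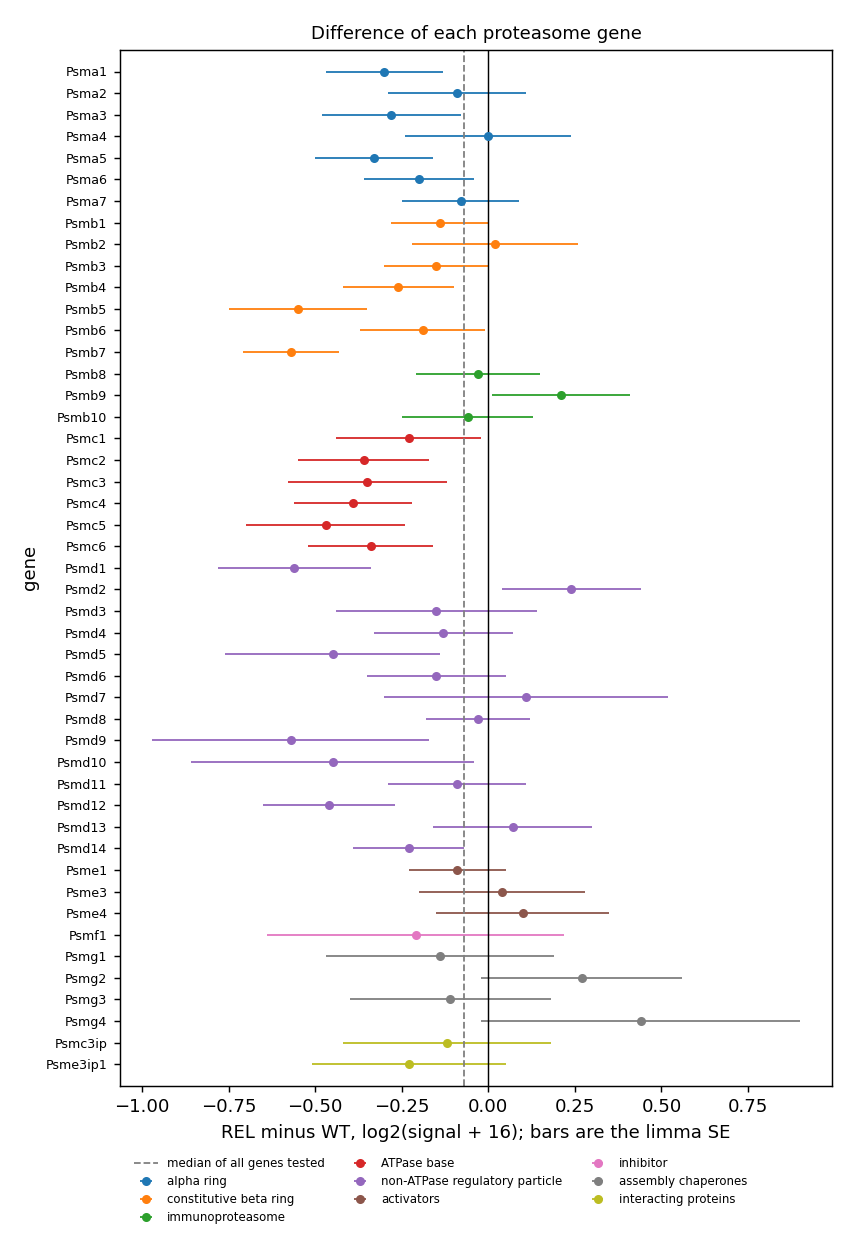
REL minus WT difference of each tested proteasome gene in log2(signal + 16) units, with the limma SE as bars, coloured by role. The dashed line is the median of all genes tested (−0.07). Psmb7 (−0.57) and Psmb5 (−0.55) lie below Psmb8, Psmb9 and Psmb10 (−0.06 to 0.21), with Psmb6 (−0.19) between them. Psmd9 (−0.57) and Psmd1 (−0.56) lie as low as Psmb7 and Psmb5.

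Genes that mature the proteasome or bring substrates to it gave mixed values. Of 30 listed symbols 18 were tested, 11 were below 0 and 7 above, with a median of −0.09 and none called. Pomp, the chaperone that completes the core particle, had signals of 7023 and 9205 in REL, against 10134, 10239 and 10476 in WT (−0.35, SE 0.15, limma adjusted p = 0.574), and the groups did not overlap. Ubqln1, a shuttle for ubiquitin-tagged proteins, had 3361 and 2883 in REL, against 3881, 4435 and 4400 in WT (−0.44, SE 0.19), also without overlap. Both REL arrays were below every WT array in 3 of the 18, where 14.3% of all genes were, and above in 1, against 9.53%. Nfe2l1, the factor known to induce proteasome genes when proteasomes are blocked, had 1244 and 1892 in REL, against 1447, 401 and 545 in WT (1.15, SE 0.51, limma adjusted p = 0.605). Its groups overlapped through WT replicate 1.

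The genes that load peptides onto MHC class I, and the interferon regulators that induce the immunoproteasome, had a median of 0.03 over 19 tested of 21 listed, with 7 below 0, 12 above and none called. Tap1, the peptide transporter gene that lies head to head with Psmb9, had signals of 2528 and 1895 in REL, against 2220, 3241 and 2885 in WT (−0.33, SE 0.25). Irf1, the interferon-induced factor that switches on Psmb8 to Psmb10, had 784 and 1671 in REL, against 634, 836 and 633 in WT (0.71, SE 0.40, limma adjusted p = 0.705). Jak1, a kinase of the interferon receptors, had 2284 and 1438 in REL, against 988, 1591 and 975 in WT (0.65, SE 0.34). The groups overlapped in all 3 genes. B2m, the light chain of MHC class I, was at 0.01 (SE 0.13), H2-K1 at 0.13 and H2-D1 at 0.01.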

How the data were processed

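RNA from flow-sorted cells was amplified before labelling and hybridized to 5 Affymetrix arrays, per the labels' protocols. The authors deposited MAS5 signal intensities on a linear scale, per the submitters' processing notes, with no version given. MAS5 scores each array by itself, so low signals vary widely. Groups came from the sample titles and gene names from the platform annotation, with 34958 of 45101 probe sets naming 1 gene, 932 several and 9211 none. Signals were transformed as log2(signal + 16), probe sets in the lowest 40% by mean log2 value (below a signal near 23.1) were dropped, and the brightest probe set per gene was kept, which gave 12082 genes. The test was limma 3.58.1 under R 4.3.3 (lmFit and eBayes with a trend, with 3 residual and 6.84 prior degrees of freedom), with Benjamini-Hochberg adjustment over all genes and calls at an adjusted p under 0.05. Precision is limited by the number of arrays, and the median SD within a group was 0.36 log2 units in REL and 0.35 in WT. Alternatives were other pseudocounts, filters, normalizations and probe set rules, no trend, the replicate number as a block, and each array left out while keeping the probe sets chosen on all 5.

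Values per array are given for the catalytic and inducible beta subunits, the activators, the inhibitor and the Psmg genes. For each of Psma, Psmb1 to Psmb7, Psmc and Psmd they are given for the 3 genes with the smallest p and the 1 farthest against the group's direction, and the other genes named were chosen after their values were seen. Psmc3ip and Psme3ip1 were kept apart from the subunits, and with Psmc3ip the Psmc median was −0.35. The members and lists were chosen with earlier results of these data known.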

Additional observations from a re-analysis of the deposited data

How the results depend on the processing

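No proteasome gene was called under any of 14 alternatives (limma, adjusted p under 0.05), and 16 of 28 tested members described by array kept their direction in all of them. With no filter, the 60% filter or no trend, each member's probe set and difference were unchanged, so these could not turn it. Nor could leaving out an array turn a member whose groups did not overlap. The number of all genes called was 1, against 0 with a pseudocount of 1 or 64, no filter, a 60% filter, no trend or averaged probe sets, 2 with quantile normalization and 3 with median centring. With the replicate block 18 genes were called, none a member. Same-numbered arrays had deviations that correlated at −0.0417 and −0.0183 across genes. With 2 REL arrays the deviations of the 1 are those of the other with the sign turned. These correlations therefore cannot decide whether same-numbered arrays were paired. Leaving out each array gave 0 to 8 calls.

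Median centring left 22 members below 0 in place of 38. It put the median of all members and of the Psmd genes at 0.02, the constitutive beta ring at −0.02, the immunoproteasome at 0.14, the ATPases at −0.19 and the activators at 0.21, and it turned Psmb8 (0.14), Psmb10 (0.11), Psme1 (0.08), Psmg1 (0.03) and Psmg3 (0.06). The median of all genes moved to 0.10 by the centring itself. Quantile normalization turned Psmb8 (0.02) and Psme1 (0.01). Averaging each gene's probe sets put the immunoproteasome at 0.21 and turned Psma3 (0.51), Psmb8 (0.51), Psme4 (−0.11) and Psmg2 (−0.18), since dim probe sets then count as much as bright ones. The replicate block put the activators at −0.11 and turned Psmb2 (−0.12) and Psme3 (−0.11). WT replicate 3 shares its number with no REL array and so drops out of the blocked difference, which gave the same values as leaving it out.

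With each array left out, 24 to 42 members were below 0, and 12 to 33 had REL wholly below WT, where 17.8% to 34.7% of all genes did. Without WT replicate 2 it was 12 members beside 20.5% of all genes, and without WT replicate 3 it was 13 beside 17.8%. The medians were −0.36 to 0.01 for the alpha ring, −0.20 to 0.18 for the immunoproteasome, −0.26 to −0.11 for the Psmd genes, −0.20 to 0.06 for the activators and −0.30 to −0.02 for all members. Direction turned within the ranges of Psma3 (−0.57 to 0.01), Psmb2 (−0.12 to 0.19), Psmb6 (−0.44 to 0.07), Psmb8 (−0.20 to 0.15), Psmb10 (−0.30 to 0.18), Psme1 (−0.23 to 0.06), Psme3 (−0.11 to 0.14), Psme4 (−0.20 to 0.41), Psmd10 (−0.91 to 0.01), Psmg1 (−0.44 to 0.16), Psmg2 (−0.19 to 0.73) and Psmg3 (−0.35 to 0.14). The pairs ran from 0.43 to 0.61 (Psmb8), 0.27 to 0.53 (Psmb9) and 0.19 to 0.84 (Psmb10) with each array left out, and the Psmb8 pair was at 1.05 with averaged probe sets.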
